A study of Mus musculus with 6 samples.

Results

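Genes of the poly(ADP-ribose) polymerase (PARP) family were compared between H10 cells, an osteoclastogenic mouse line, and C8 cells, which do not form osteoclasts. The 10 genes described were Parp1, Parp2, Parp3, Parp8, Parp9, Parp10, Parp12, Parp14, Zc3hav1 (which encodes PARP13) and Dtx3l, the gene of the ubiquitin ligase that binds PARP9, out of 19930 genes measured. They were taken by their symbols in the array's annotation, and each of the 10 was read by 1 feature. Both lines were clones of RAW264.7, a mouse macrophage-like cell line, that carried a Lifeact-mEGFP retroviral vector with puromycin resistance, so each phenotype rests on 1 clone. Both received sRANKL, the soluble cytokine that drives osteoclast formation, at 60 ng/mL for 2 days, and RNA of each line was put on 3 arrays. Cells without sRANKL and parental cells were not analysed here.

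Enzymes of the PARP family use NAD+ to attach ADP-ribose to proteins, either as chains or as single units. PARP1, PARP2 and PARP3 are switched on by broken DNA and recruit repair proteins. Another branch is induced by interferons: PARP9 and PARP14 carry macrodomains, folds that bind ADP-ribose, PARP9 works together with DTX3L, PARP10 and PARP12 attach single units, and PARP13, also called ZAP, binds viral RNA but lacks the enzyme activity. Osteoclasts arise from macrophage-like precursors, in which this interferon-induced branch acts in antiviral defence.

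The values were log2 values normalized by the authors with RMA, so a difference of 1 between the lines is a 2-fold difference. The arrays of replicate 1 stood apart from the others in both lines: on the second principal component, which held 22.2% of the variance, they scored 0.42 (H10) and 0.69 (C8), while the other 4 arrays scored between -0.42 and -0.18. Arrays of the same line differed with an SD of 0.20 to 0.29 over the features, and arrays of different lines with one of 0.30 to 0.34. Feature by feature, the lines were compared with limma, two-sided, with adjusted p-values over all 35545 features. Positive log2 differences are higher in H10 cells. Of all genes, 1.85% were called higher in H10 cells at an adjusted p under 0.05 and 1.04% lower (1.36% and 0.757% of all features), and among genes brighter than the table median these shares were 2.94% and 1.67%. The experiment is described as done in triplicate, but whether each array came from a separate dish of cells is not stated. The p-values therefore rest on a spread that may be technical, and on few arrays. RNA of whole cultures was measured, so fewer cells expressing a gene and less RNA per cell cannot be told apart. Of the 7 macrophage markers, Lyz2, Csf1r, Cd68 and Spi1 had mean log2 values above 13 in both lines, whereas Adgre1, which encodes a macrophage surface receptor, was higher in H10 cells by 2.02 (adjusted p = 0.00114). The list's mean ranged from 12.08 to 12.16 in H10 cells, against 11.66 to 11.80 in C8 cells. Of 9 osteoclast markers, 6 were called higher in H10 cells, and the mean of the 9 was 11.38 to 11.58 in H10 and 10.09 to 10.44 in C8 cells. Of the 6, Ctsk, Dcstamp and Oscar passed under all 14 other settings tried, Atp6v0d2 under 11, Ocstamp under 9 and Acp5 under 6. Mmp9, Calcr and Nfatc1 did not pass, at log2 differences of -0.34, 0.07 and 0.14. Whether these differences in marker levels had a part in those of the PARP genes was not tested. The mean over 8 markers of lymphoid, mast, stromal, endothelial and epithelial cells was 7.17 to 7.18 in H10 and 7.08 to 7.28 in C8 cells.

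Of the 10 genes, 6 were called higher in H10 cells, 0 were called lower and 4 did not pass the test (with no adjustment, 6 and 0 had p under 0.05 in limma). The share of all genes with an unadjusted p under 0.05 was not counted. Unadjusted counts, here and for the lists below, therefore have no share to be read against. The 6 called genes were Parp14, Parp9, Dtx3l, Parp12, Parp10 and Parp8. The median log2 difference of the 10 genes was 0.65, beside -0.03 over all genes. For the same 6 genes all H10 arrays lay above all C8 arrays, which 7.74% of all genes did, and none of the 10 lay wholly below, as 12.7% of all genes did. By role, 5 of the 6 genes listed as linked to interferon were called higher, against 0 of the 3 DNA repair genes and 1.85% of all genes. The lists were drawn up with earlier results of these data known, so this contrast depends on the grouping. Family genes outside the 10, such as Parp11 and Tiparp, are not in these counts. The count of 6 called genes fell to 2, Parp14 and Parp12, without C8 replicate 2, C8 replicate 3 or H10 replicate 3. It fell to 3, with Parp9, without H10 replicate 2. Over all genes the number called higher fell as well, from 369 to 159, 174, 152 and 187 in the order of the arrays named.

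**Figure D1:**
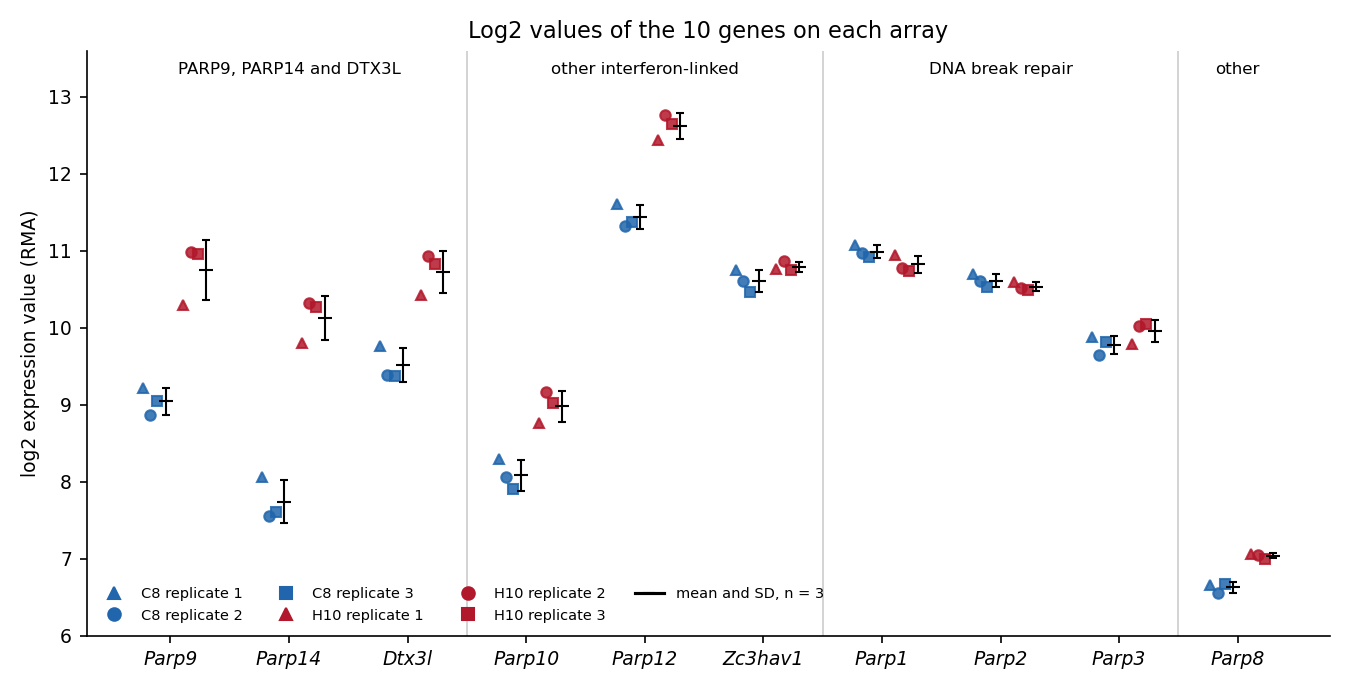
Log2 values (vertical axis) of the 10 genes, with 1 point per array, blue for C8 and red for H10 cells, a symbol for each replicate number, and bars for a line's mean and SD (n = 3). The lines do not overlap for Parp9, Parp14, Dtx3l, Parp10, Parp12 and Parp8. Heights are not comparable between genes.

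The largest difference was that of Parp14, a mono-ADP-ribosyltransferase first known as a co-activator of STAT6. Its log2 values were 9.80, 10.32 and 10.27 for H10 replicates 1 to 3, and for C8 replicates 1 to 3 they were 8.06, 7.55 and 7.61 (all genes follow this order). The lowest H10 array was 1.74 above the highest C8 array. The means were 10.13 ± 0.29 and 7.74 ± 0.28 (SD, n = 3), which made Parp14 5.24-fold higher in H10 cells; limma gave 2.39 on the log2 scale with a standard error of 0.19 and an adjusted p = 0.00281. It was the only one of the 10 genes past a fold of 5, as 0.206% of all genes were, and ranked 31 of 19930 genes by log2 difference. The paper itself picked Parp14 from these arrays, so its direction is not independent evidence. It then followed Parp14 and other picked genes by RT-qPCR over the days of osteoclast formation in RAW264.7 cells and bone marrow monocytes. Of the genes tested there, it reports a significant rise for CD109 alone. That compares days and not the 2 lines. On C8 replicates 2 and 3 its values lay under the array medians (7.71 and 7.74). In C8 cells, markers of other cell types had means of 5.59 (Cpa3) to 8.61 (Col1a1), a range that holds the 7.74 of Parp14. A background level was not estimated, so the exact fold is uncertain. It fell under a fold of 5 without H10 replicate 2, H10 replicate 3 or C8 replicate 2, with log2 differences of 2.30, 2.32 and 2.30 in the order of the arrays named.

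Parp9, whose product reads ADP-ribose through its macrodomains and forms a complex with DTX3L, had log2 values of 10.30, 10.99 and 10.96 in H10 cells and 9.22, 8.87 and 9.05 in C8 cells. H10 replicate 1 was the lowest of its line, and still 1.08 above the highest C8 array. The gene was 3.26-fold higher in H10 cells, a log2 difference of 1.70 with a standard error of 0.20 (adjusted p = 0.0111 in limma). Dtx3l, which encodes the ubiquitin ligase of the complex, had 10.42, 10.93 and 10.83 in H10 cells, against 9.77, 9.39 and 9.38 in C8 cells. Here too the lines did not overlap, with 0.65 between the nearest arrays. It was 2.32-fold higher in H10 cells (log2 difference 1.21, standard error 0.17, adjusted p = 0.0194 in limma). For both genes the call rested on few arrays. The call of Parp9 was lost when H10 replicate 3, C8 replicate 2 or C8 replicate 3 was left out (adjusted p = 0.0550 to 0.0595), and that of Dtx3l when replicate 2 or 3 of either line was left out (adjusted p = 0.0718 to 0.0961). Without the replicate 1 arrays of both lines all 3 genes of this group passed, at log2 differences of 2.72 for Parp14, 2.02 for Parp9 and 1.50 for Dtx3l.

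The size of the difference was set side by side for the 3 genes, in pairs chosen after the values were seen. Within each array, the log2 value of Parp14 minus that of Dtx3l was -0.62, -0.61 and -0.56 in H10 cells and -1.71, -1.84 and -1.77 in C8 cells. The SD of this difference was 0.03 and 0.07, against 0.18 to 0.39 for Parp14, Parp9 and Dtx3l alone. Parp14 differed between the lines by 1.18 more than Dtx3l, and by 0.69 more than Parp9, while Parp9 differed by 0.49 more than Dtx3l. None of these 3 within-array differences overlapped between the lines. Nor did those of each of the 3 genes against Parp1, which set called genes against one that was not called. The separation against Parp1 was already contained in the values of the called genes, since Parp1 itself differed little. The share of all gene pairs without overlap was not counted. An exact two-sided permutation test of 3 arrays against 3 cannot go below p = 0.10, the value of all 6 pairs (0.10 after adjustment over them), so that unequal sizes were not shown by a test.

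Parp14, Dtx3l and Parp9 are neighbours on chromosome 16 in the gene table of GRCm38.p6, with 2 pseudogenes between Parp14 and Dtx3l and with the ends of Dtx3l and Parp9 overlapping. The 8 measured genes around them had differences of -0.30 to 0.13. On one side, Hspbap1 and Slc49a4 had log2 differences of 0.13 (adjusted p = 0.782 in limma) and 0.03 (adjusted p = 0.974), and Sema5b and Pdia5, farther out, had -0.08 (adjusted p = 0.807) and -0.30 (adjusted p = 0.0932). On the other side, Kpna1, which encodes an importin, had log2 values of 11.22, 11.21 and 11.18 in H10 cells, against 11.25, 11.22 and 11.12 in C8 cells. Its difference was 0.01, with a 95% interval of -0.14 to 0.16. Beyond it, Wdr5b, Fam162a and Ccdc58 had -0.11, -0.28 and -0.06 (adjusted p = 0.782, 0.253 and 0.850). None of the 8 passed the test. In none did the H10 arrays lie wholly above the C8 arrays (7.74% of all genes), while for 2, Pdia5 and Fam162a, they lay wholly below (12.7% of all genes). Because Dtx3l and Parp9 overlap, and the labels name no strand, whether a probe of one could read transcripts of the other was not tested.

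**Figure D2:**
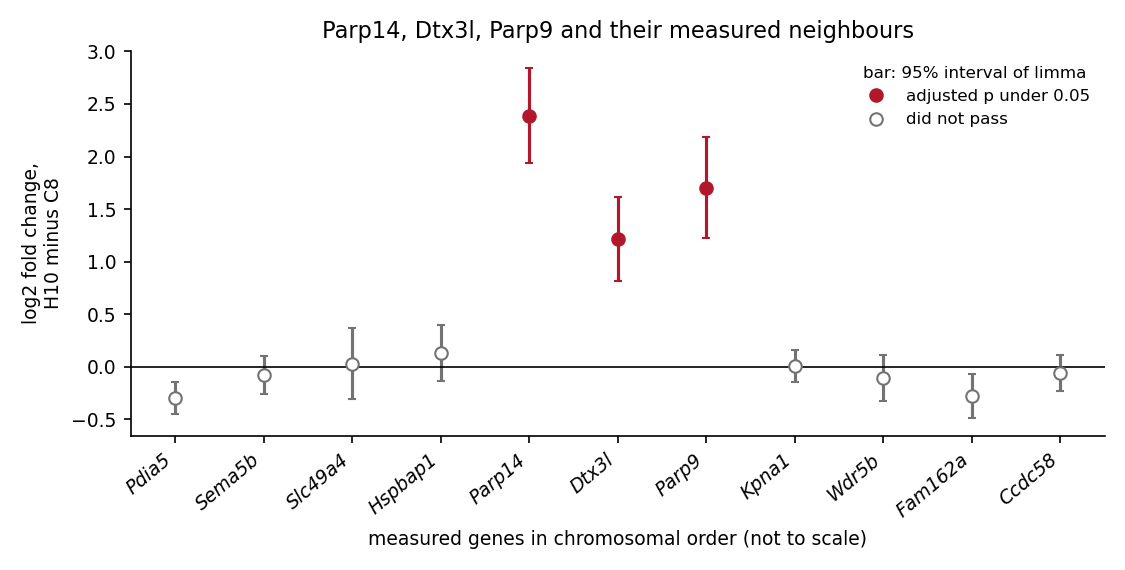
Log2 fold change, H10 minus C8, with its unadjusted 95% interval from limma, for Parp14, Dtx3l and Parp9 and the 4 nearest measured genes on each side, in chromosomal order and not to scale. The 3 genes lie between 1.21 and 2.39 and their 8 neighbours between -0.30 and 0.13.

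Among the other interferon-linked genes, Parp12 and Parp10 were higher in H10 cells. PARP12 is a zinc-finger protein that restricts RNA viruses. Its log2 values were 12.44, 12.77 and 12.65 in H10 cells, against 11.61, 11.32 and 11.38 in C8 cells, without overlap. The gene was 2.27-fold higher (log2 difference 1.18, standard error 0.12, adjusted p = 0.00588 in limma), with a smaller spread than Dtx3l at almost the same difference. Parp10, whose product attaches single ADP-ribose units, had 8.76, 9.16 and 9.02 in H10 cells, against 8.30, 8.06 and 7.90 in C8 cells. The nearest arrays of the lines were 0.46 apart. Parp10 was 1.86-fold higher (log2 difference 0.89, standard error 0.14, adjusted p = 0.0310 in limma), but the call was lost when replicate 2 or 3 of either line was left out (adjusted p = 0.107 to 0.137). Without the replicate 1 arrays of both lines, the log2 differences were 1.36 for Parp12 and 1.11 for Parp10, and both passed.

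Zc3hav1 stood apart from this group. Its log2 values were 10.76, 10.87 and 10.75 in H10 cells and 10.75, 10.61 and 10.47 in C8 cells. The lowest H10 array and the highest C8 array held the same value. The log2 difference was 0.18, with a 95% interval of -0.03 to 0.39 (adjusted p = 0.503 in limma), so that a change of up to 0.39 is within its error. In all 5 interferon-linked genes that were called higher, replicate 1 was the lowest H10 array and the highest C8 array. Their lines thus lay closest together on the arrays that stand apart. This order was not particular to them, since Parp3 and neighbours of Parp14 such as Hspbap1 and Slc49a4, none of them called, had it too. Replicate 1 was also the highest C8 array for Zc3hav1, Parp1 and Parp2. The share of all genes with this order was not counted.

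The DNA repair PARPs showed small differences in both directions. PARP1 is the main sensor of DNA strand breaks, and Parp1 had log2 values of 10.95, 10.78 and 10.74 in H10 cells, against 11.08, 10.97 and 10.92 in C8 cells. The ranges overlapped, and the difference was -0.17 with a 95% interval of -0.36 to 0.03 (adjusted p = 0.519 in limma). Parp2, which encodes its closest relative, had 10.60, 10.52 and 10.49 in H10 cells, against 10.70, 10.61 and 10.53 in C8 cells. Its difference was -0.08 (95% interval -0.25 to 0.09, adjusted p = 0.800). Parp3, which acts at double-strand breaks, had 9.79, 10.02 and 10.05 in H10 cells, against 9.88, 9.65 and 9.81 in C8 cells. H10 replicate 1 lay among the C8 arrays, and the difference was 0.17 (95% interval -0.06 to 0.41, adjusted p = 0.610). The intervals of these 3 genes end at 0.41 or lower, whereas those of Parp14, Parp9 and Dtx3l begin at 1.94, 1.22 and 0.81.

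Parp8, a little-studied member that attaches single ADP-ribose units, was higher in H10 cells by a small amount. Its log2 values were 7.06, 7.05 and 7.0 in H10 cells, against 6.66, 6.55 and 6.67 in C8 cells, so that H10 was 1.33-fold higher (log2 difference 0.41, standard error 0.06, adjusted p = 0.0291 in limma). All 6 values lay under the median of their array (7.65 to 7.74). The call was lost without any 1 of the 6 arrays (adjusted p = 0.0524 to 0.140) and when both replicate 1 arrays were left out (adjusted p = 0.115).

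Of the 7 remaining genes of the family, 6 had a feature of their own, and Parp4 shared its feature with another gene and was not used. Of the 6, only Parp11, whose product acts at the nuclear envelope, was called higher. Its log2 values were 9.34, 9.38 and 9.41 in H10 cells, against 8.99, 8.84 and 8.89 in C8 cells. The lines did not overlap, and the log2 difference was 0.47 (standard error 0.07, adjusted p = 0.0204 in limma). It did not pass without any 1 of the arrays other than C8 replicate 1, nor when both replicate 1 arrays were left out (adjusted p of up to 0.119 over all settings). Tiparp, which encodes PARP7, a target of the aryl hydrocarbon receptor, had a log2 difference of 0.41 (adjusted p = 0.179). Parp6 and Parp16, the latter an enzyme of the endoplasmic reticulum, had -0.39 (adjusted p = 0.128) and -0.23 (adjusted p = 0.467). The tankyrases Tnks and Tnks2, which control the turnover of the adaptor protein 3BP2 in osteoclasts, had 0.04 (adjusted p = 0.936) and -0.12 (adjusted p = 0.659). Over the 16 genes read by a feature of their own, 7 were called higher and 0 lower (with no adjustment, 8 and 1 had p under 0.05).

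**Figure D3:**
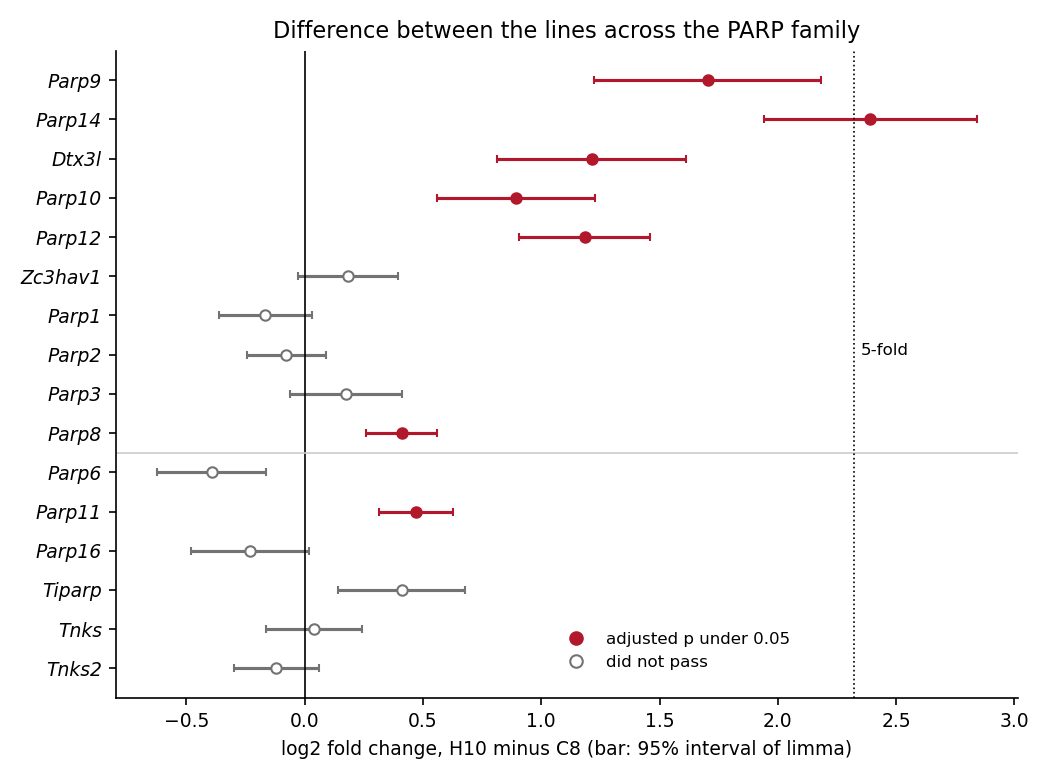
Log2 fold change, H10 minus C8, with its unadjusted 95% interval from limma, for the 10 genes (above the grey line) and 6 others of the PARP family (below it); filled points passed an adjusted p under 0.05 and the dotted line marks a fold of 5. Parp14 lies at 2.39 and the DNA repair genes Parp1, Parp2 and Parp3 between -0.17 and 0.17. The intervals of Parp6 and Tiparp leave out 0, although neither gene passed after adjustment.

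Members of the family are known to be induced by interferon. Printed here are the stretches before the starts of Dtx3l, Parp12 and Parp11, as RefSeq gives them for GRCm38.p6. These genes were called higher in H10 cells, but so was Parp8, whose stretch is not printed. Interferon acts through the ISRE, searched here as GAAANNGAAA and its reverse TTTCNNTTTC, and through the GAS, searched as TTCNNNGAA, which reads the same on both strands. A promoter window reached from 250 bases before a gene's start to 50 after it, and 7 of the 10 genes had one: Dtx3l, Parp12, Zc3hav1, Parp1, Parp2, Parp3 and Parp8. Parp9, Parp14 and Parp10 had none. Of 32841 windows over all genes, 3.44% held an ISRE and 8.3% a GAS. None of the 7 windows held either motif. Of the other family genes, the first of 2 windows of Parp11 held 1 of each, overlapping, shown in capitals, that of Parp4, which has no value of its own here, held 2 overlapping ISRE matches, and that of Parp16, which was not called, held 1 GAS. A shorter motif contained in the ISRE, AANNGAAA or its reverse TTTCNNTT, stood in 23.9% of all windows and in 2 of the 7, those of Dtx3l and Parp2. The match of Dtx3l, at position 293 of 300, lies after the gene's start and so outside the bases printed below. Of the other family genes, the first window of Parp11 held 4 such matches, all within the printed bases. That of Parp4 held 2, and those of Parp16 and Tnks2 held 1 each. The second window of Parp11 held no match of the ISRE, the GAS or the shorter motif. Among the called genes with a window, only Parp11, which is outside the 10, held an ISRE or a GAS. The 250 bases before the start are given from 5′ to 3′ for Dtx3l (chr16:35939028-35939277, minus strand), Parp12 (chr6:39118350-39118599, minus strand) and Parp11 (chr6:127446590-127446839, plus strand). A match is a description of the letters, and no match says only that these letters are not in this window.
Dtx3l: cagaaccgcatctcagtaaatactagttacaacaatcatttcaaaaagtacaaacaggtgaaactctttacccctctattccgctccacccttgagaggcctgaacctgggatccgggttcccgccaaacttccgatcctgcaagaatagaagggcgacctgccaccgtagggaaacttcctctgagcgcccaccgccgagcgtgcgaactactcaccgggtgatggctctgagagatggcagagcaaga
Parp12: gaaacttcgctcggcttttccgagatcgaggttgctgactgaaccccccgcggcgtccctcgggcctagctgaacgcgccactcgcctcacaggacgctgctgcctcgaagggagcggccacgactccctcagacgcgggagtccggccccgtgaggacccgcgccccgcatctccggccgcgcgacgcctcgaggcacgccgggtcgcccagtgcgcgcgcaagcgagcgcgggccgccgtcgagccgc
Parp11: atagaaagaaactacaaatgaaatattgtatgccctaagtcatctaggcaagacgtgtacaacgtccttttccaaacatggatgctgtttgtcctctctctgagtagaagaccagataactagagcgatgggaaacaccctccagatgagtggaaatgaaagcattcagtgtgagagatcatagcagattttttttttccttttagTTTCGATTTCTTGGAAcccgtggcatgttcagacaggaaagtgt

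Most genes in the lists around the family did not pass the test, which does not show that their levels were equal. Of 7 measured genes that remove ADP-ribose, 0 were called higher and 0 lower in limma (0 and 1 at an unadjusted p under 0.05), with a median log2 difference of -0.07 beside -0.03 over all genes. Parg, the enzyme that cuts ADP-ribose chains, had -0.11 (adjusted p = 0.655), and Macrod1, which removes the last unit from proteins, had -0.21 (adjusted p = 0.306). None of 7 readers and cofactors of ADP-ribose was called in either direction (0 and 0 at an unadjusted p under 0.05). Among them Hpf1, the partner that directs PARP1 to serine, had -0.03, and Macroh2a1, a histone variant with a macrodomain, -0.08 (adjusted p = 0.939 and 0.766).

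Of 15 genes of DNA break repair, 0 were called higher and 0 lower (1 and 1 at an unadjusted p under 0.05), and all lay between -0.16 and 0.15. Xrcc1, the scaffold that PARP1 recruits to single-strand breaks, had log2 values of 9.85, 9.84 and 9.83 in H10 cells, against 10.11, 9.94 and 9.96 in C8 cells. The lines did not overlap, but the difference of -0.16 did not pass (adjusted p = 0.418). None of the 4 other Deltex ligases was called (1 and 0 at an unadjusted p under 0.05); Dtx4 had the widest difference, 0.83 (adjusted p = 0.0825), with values of 10.08, 10.75 and 10.60 in H10 cells, against 9.58, 9.57 and 9.78 in C8 cells.

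Genes that supply NAD+ to these enzymes did not pass either, with 0 of 10 called in either direction (0 and 0 at an unadjusted p under 0.05) and a median of 0.00. Nampt, the rate-limiting enzyme of NAD+ salvage, had 0.17 (adjusted p = 0.652), and Nmnat1, which makes NAD+ in the nucleus, had 0.29 (adjusted p = 0.547). Of 9 other NAD+-consuming genes 1 was called higher, Bst1, a surface enzyme that makes cyclic ADP-ribose. Its log2 values were 10.90, 10.76 and 10.84 in H10 cells, against 10.22, 9.56 and 9.65 in C8 cells (log2 difference 1.02, adjusted p = 0.0401). Bst1 did not pass with median centring, nor without any 1 of the arrays other than C8 replicate 1 (adjusted p of up to 0.159 over all settings). The 7 sirtuin genes had differences of -0.12 to 0.14.

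Of 11 measured genes of interferon signalling, 3 were called higher and 0 lower (4 and 0 at an unadjusted p under 0.05), all of them interferon regulatory factors. Irf7 was higher by 3.71 (adjusted p = 0.000639), Irf9, a subunit of the factor that binds the ISRE, by 1.06 (adjusted p = 0.00405), and Irf1 by 0.78 (adjusted p = 0.0190). A second feature of Irf1 had a difference of -0.02 (adjusted p = 0.973), and Irf1 did not pass without any 1 of the arrays other than C8 replicate 1 (adjusted p of up to 0.0961 over all settings). Stat2 had 0.66 (adjusted p = 0.0765), while the receptor genes Ifnar1, Ifnar2, Ifngr1 and Ifngr2 had differences between -0.09 and 0.10 and the kinases Jak1, Jak2 and Tyk2 between -0.05 and 0.13. Around PARP14, 0 of the 3 measured genes of IL-4 signalling were called (1 and 0 at an unadjusted p under 0.05). Stat6 itself had 0.01 (adjusted p = 0.978) and the receptor chain Il4ra -0.09 (adjusted p = 0.720). Il13ra1, the gene past the unadjusted threshold, had 0.50 (adjusted p = 0.174 in limma). Its H10 arrays all lay above its C8 arrays, as for 7.74% of all genes. Around ZAP, 0 of 12 partner genes were called (2 and 0 at an unadjusted p under 0.05). Trim25, a ligase that ZAP needs, had 0.44 (adjusted p = 0.0661), and Khnyn, a nuclease that works with ZAP, had 0.00 (adjusted p = 0.992).

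**Figure D4:**
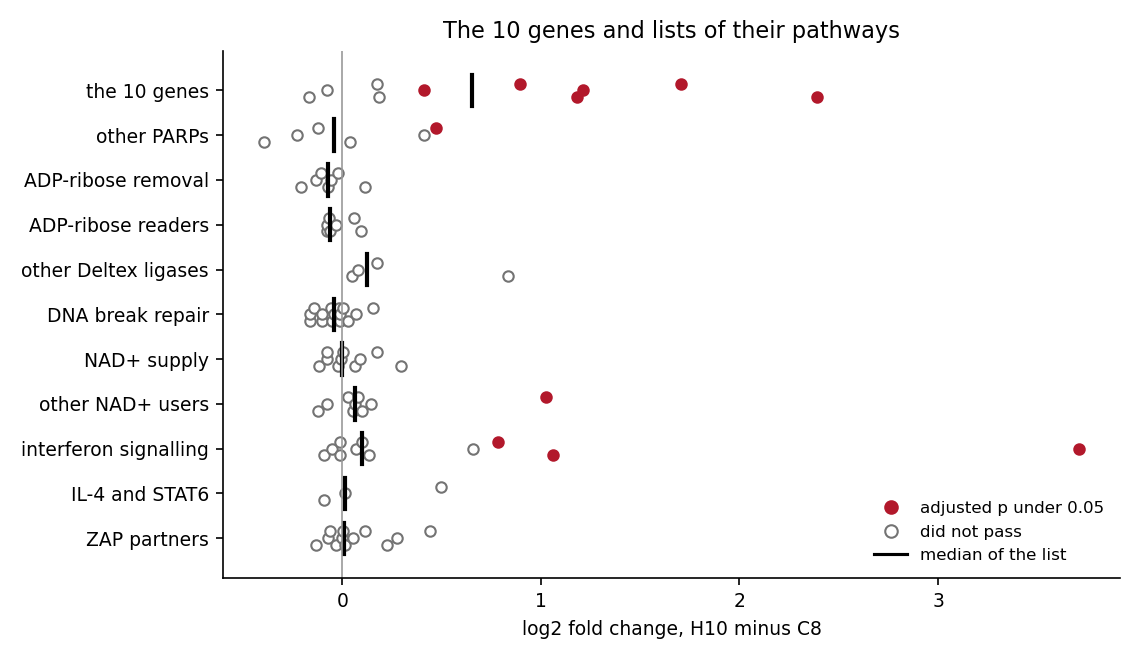
Log2 fold change, H10 minus C8, of the 10 genes and of each measured gene in 10 lists around them; filled points passed an adjusted p under 0.05 and a bar marks each list's median. The median is 0.65 for the 10 genes and between -0.07 and 0.13 for the lists.

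Genes with the most similar profiles were found by the Euclidean distance between log2 values over the 6 arrays, each gene centred on its own mean. These distances contain the difference between the lines and the shared deviation of the replicate 1 arrays, and they are a description. The nearest to Parp14 was Ifih1, which encodes the RNA sensor MDA5, at a distance of 0.13, followed by Bco2, an enzyme that splits carotenoids, Oas3, Oasl1 and Slfn5, at up to 0.30. Parp9 was nearest to Anpep, which encodes aminopeptidase N, at 0.23, then to Oas1b, Sp100, the RNA helicase gene Mov10 and the actin regulator gene Eps8, at up to 0.35. Dtx3l was nearest to Nmi, at 0.17, then to Parp12, Herc6, Ifi35 and Eif2ak2, which encodes the kinase PKR, at up to 0.25. The log2 differences of these genes between the lines were 2.28 to 2.49 around Parp14, 1.47 to 1.78 around Parp9 and 1.18 to 1.34 around Dtx3l.

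Parp14 and Parp12 were called higher under each of the 14 other settings tried, with adjusted p-values of 0.000617 to 0.0297 for Parp14 and 0.00144 to 0.0460 for Parp12. The calls of Parp9, Dtx3l, Parp10 and Parp8 were lost under some of the settings.

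**Figure D5:**
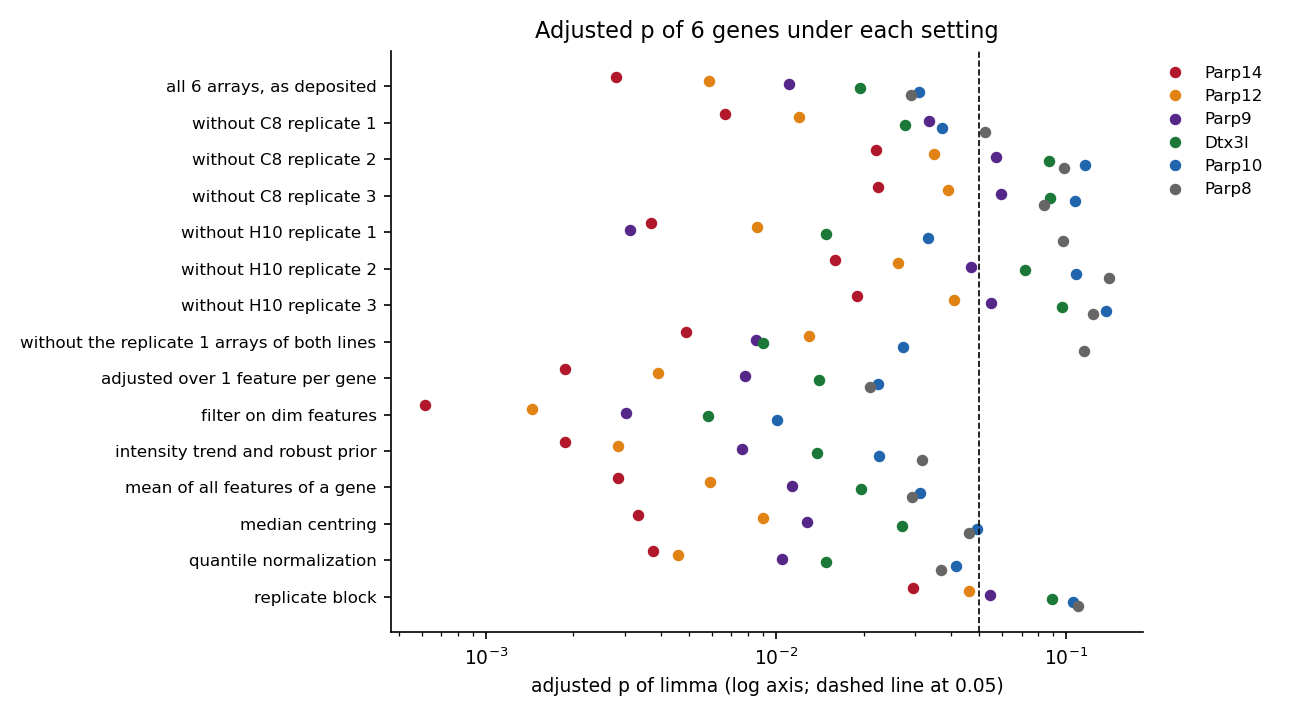
Adjusted p from limma (log axis) of the 6 genes called higher in H10 cells, under the fit to all 6 arrays and under 14 alternatives; the dashed line marks 0.05. Parp14 and Parp12 lie left of the line throughout, and Parp8, which the filter on dim features removes, lies right of it in 8 of its 13 alternatives.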

How the data were processed

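Total RNA of H10 and C8 cells was hybridised to Mouse Gene 1.0 ST arrays (Affymetrix), 3 for each line. The authors normalized the deposited log2 values with RMA (background correction, equalized arrays, 1 summary per feature), and Affymetrix Expression Console is named in the submitters' processing notes, with a version that is not given in the sources used here. Arrays were grouped by the cell line in the labels. Of 35545 features, 21781 had 1 gene symbol, and of several features for a gene the one with the highest mean was used. Gene names and gene order were read from a table of GRCm38.p6, since the build behind the annotation is not given.

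After the paper's methods, all features were fitted with limma 3.58.1 (lmFit, eBayes) in R 4.3.3, with 4 residual and 2.57 prior degrees of freedom and Benjamini-Hochberg adjustment; the call was an adjusted p under 0.05. The study's rule also asks for a fold of at least 5, under which 1 of the 10 genes is called, so the counts here follow a wider rule. The fit was tested on simulated data. Pairs of genes were compared by exact permutation in scipy 1.17.1. The 10 genes and all lists were chosen with earlier results of these data known, and the promoter motifs after their values were seen. Named genes were the 10, the rest of the family, up to 4 called genes in each direction and up to 2 others of a list, 4 measured neighbours on each side and the 5 nearest profiles; further list members are given as ranges, or were chosen after their values were seen. Alternatives left out each array in turn or the replicate 1 arrays of both lines, or changed the normalization, filter, feature rule, variance model, adjustment or pairing. Figures were drawn with matplotlib 3.10.9.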

Additional observations from a re-analysis of the deposited data

How the results depend on the processing

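Under the 14 alternatives, the 10 genes kept the direction of their difference, and none was called lower under any of them. The count of 6 genes called higher was 2 to 5 when 1 array was left out, and that of genes past a fold of 5 was 0 to 1. Each fit without 1 array has fewer samples, and over all genes the number called higher fell from 369 to between 152 and 346. Leaving out the replicate 1 arrays of both lines gave 5, and so did the filter on dim features, which removes Parp8. The count stayed at 6 with median centring, quantile normalization, an average over a gene's features, a robust prior with an intensity trend, or adjustment over 1 feature per gene.

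With the replicate number as a block, 2 of the 10 genes were called higher, Parp14 and Parp12, while Parp9, Dtx3l, Parp10 and Parp8 had adjusted p-values of 0.0545, 0.0893, 0.106 and 0.110 in limma. Parp11, Bst1 and Irf1 did not pass with the block either. Over all genes, 225 were called higher with the block and 369 without it. The numbers could not be shown to pair the arrays: deviations from the line means correlated across features at 0.17, 0.00 and -0.12 for equal numbers, and only 1 of the 3 H10 arrays, replicate 1, correlated best with its own number. No background level was estimated here from these arrays, so values of dim features such as Parp8 have no known floor. The mean over 8 markers of other cell types was 7.08 to 7.28 on the C8 arrays and 7.17 to 7.18 on the H10 arrays. All values of Parp8, 6.55 to 7.06, lay under these means, although heights are not comparable between genes.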
